A study of Mus musculus with 11 samples.

Results

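The circadian clock genes described here were Arntl, Clock, Per1, Per2, Per3, Cry1, Nr1d1, Nr1d2, Dbp and Nfil3, chosen by gene name from the deposited table of gene counts. They are 10 of the 43346 genes in that table, and all 10 were among the 19863 genes that passed the filter on low counts. The samples were colonic RNA from male Swiss Webster mice of 8–10 weeks, 5 of them germ-free and 6 humanized. Humanized mice were themselves raised germ-free and were given 300 μL of stool suspension from 1 healthy human donor by gavage at 4–5 weeks of age, so that the group stands for the microbiota of 1 donor. Both groups were singly housed in isolators on a light–dark cycle with autoclaved food and water, and neither carried an engineered allele. The hour at which the colon was collected is not given in the sources used here, so the part that time of day plays in any value was not tested.

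The circadian clock is a feedback loop of transcription that runs in nearly every cell, including the cells of the intestinal wall. CLOCK and the Arntl product BMAL1 bind E-boxes and activate the Per, Cry and Nr1d genes and Dbp. PER and CRY proteins then repress this activation. The nuclear receptors REV-ERBα and REV-ERBβ, encoded by Nr1d1 and Nr1d2, repress Arntl, Clock, Cry1 and Nfil3 through ROR elements, at which the ROR receptors activate. DBP activates and NFIL3 represses at D-boxes. The RNA of Arntl and that of Dbp or Nr1d1 peak in opposite phases of the day. In intestinal epithelium, Nfil3 is also known as a regulator of lipid uptake that responds to the microbiota.

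Promoter sequences show where such elements stand in the members. RefSeq (GRCm38.p6) gave 13 windows for 9 of the 10 members, all but Per2, each from 250 bases before to 50 bases after a transcription start. The motifs searched on both strands were the E-box CACGTG, the variant E-box CACGTT, the D-box TTATGTAA or TTACGTAA, the ROR element TAGGTCA or TGGGTCA, and the cAMP response element TGACGTCA. An E-box was found in windows of Per1 and Cry1 and in 7.15% of all 32851 promoter windows. The variant E-box was found in Cry1 and Nr1d1 and in 4.68% of all windows. The D-box occurred in Per3 at 2 places, in none of the other searched members, and in 1.06% of all windows. ROR elements were found in Arntl and Nfil3 and in 6.45% of all windows. No member window held the cAMP response element, which 1.79% of all windows held. Windows of 4 members are shown because Per1 and Per3 fell in humanized mice and because Arntl and Nfil3 are targets of the Nr1d1 product. Capitals mark the motif, and each sequence runs 5′ to 3′ on the strand of the gene.
Per1, chr11:69098699-69098998, plus strand, E-box at -166 from the start: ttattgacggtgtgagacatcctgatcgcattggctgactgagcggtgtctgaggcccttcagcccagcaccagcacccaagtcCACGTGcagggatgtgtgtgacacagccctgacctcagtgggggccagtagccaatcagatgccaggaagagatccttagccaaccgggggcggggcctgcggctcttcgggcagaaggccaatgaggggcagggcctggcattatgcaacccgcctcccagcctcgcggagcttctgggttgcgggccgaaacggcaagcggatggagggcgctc
Per3, chr4:151044616-151044915, minus strand, D-boxes at -205 and -158 from the start: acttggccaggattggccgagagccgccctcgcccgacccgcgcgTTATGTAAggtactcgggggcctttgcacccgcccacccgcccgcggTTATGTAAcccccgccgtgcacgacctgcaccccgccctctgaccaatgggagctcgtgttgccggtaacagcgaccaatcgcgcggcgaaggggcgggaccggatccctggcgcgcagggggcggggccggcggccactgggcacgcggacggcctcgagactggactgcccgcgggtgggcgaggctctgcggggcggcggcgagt
Arntl, chr7:113207261-113207560, plus strand, ROR element at 31 from the start: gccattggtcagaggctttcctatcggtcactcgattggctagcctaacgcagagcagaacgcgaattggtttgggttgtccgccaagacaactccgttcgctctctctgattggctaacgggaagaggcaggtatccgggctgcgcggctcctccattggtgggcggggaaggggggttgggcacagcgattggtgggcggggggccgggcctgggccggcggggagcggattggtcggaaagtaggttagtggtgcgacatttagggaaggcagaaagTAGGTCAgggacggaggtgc
Nfil3, chr13:52980990-52981289, minus strand, ROR element at -12 from the start: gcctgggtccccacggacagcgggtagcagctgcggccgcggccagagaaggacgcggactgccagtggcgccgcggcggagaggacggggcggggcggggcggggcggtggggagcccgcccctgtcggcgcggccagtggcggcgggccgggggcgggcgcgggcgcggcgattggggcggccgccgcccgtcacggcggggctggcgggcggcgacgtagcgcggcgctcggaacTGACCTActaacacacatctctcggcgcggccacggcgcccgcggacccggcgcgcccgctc
These are matches of letters in a window, and binding was not measured.

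Between 39125290 and 64148538 reads were counted per mouse, and each member had between 122 and 10851 reads in each library. Expression is given as RPKM, reads scaled by the gene length in the table and by the counted reads of the library, the latter normalized by the trimmed mean of M-values (TMM). A positive log2-fold change (LFC) means a higher level in humanized mice. LFC values were tested with edgeR's exact test over all 19863 genes at a false discovery rate (FDR) below 0.01, and their standard errors (SE) come from edgeR's quasi-likelihood fit. In that test 1827 genes were higher and 1999 lower in humanized mice, with a median LFC of 0.01 over all genes. The split depended on scaling, with 773 higher and 3609 lower when libraries were scaled to total counts and 496 higher and 2877 lower when they were scaled to 11 epithelial markers. These scalings moved the median LFC of all genes by -0.19 and -0.25. The p-values set the group difference against the spread between mice, and they cover no spread between donors.

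The colonic samples differed in smooth muscle markers. All 11 epithelial markers were present, with a summed level of 9272–12381 CPM in germ-free and 10603–14801 CPM in humanized mice, and 3 of 11 were higher. Of 10 smooth muscle markers, 10 were lower in humanized mice, and their summed level was 932–2619 CPM in germ-free mice against 104–935 CPM in humanized mice. Of 8 markers of enteric neurons and glia 7 were lower, as were 3 of 4 fibroblast markers, while 3 of 4 lymphocyte markers were higher. No endothelial or macrophage marker of 3 each was called by edgeR's exact or quasi-likelihood test or by DESeq2, though 2 of each 3 had an unadjusted p under 0.05 in the exact test, and no marker was at 0 in any mouse. In bulk tissue, fewer cells of a type and less RNA per cell cannot be told apart.

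Among the 10 members, the 3 Period genes were lower in humanized mice and no member was higher at FDR below 0.01. Relative to germ-free mice, Per1 was 51.6% lower, Per2 45.8% lower and Per3 27.5% lower. The remaining members moved less or varied more between mice. A call in either direction was made for 19.3% of all genes tested, and a call of lower for 10.1%, of higher for 9.2%. The median LFC over the 10 members was -0.11.

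**Figure D1:**
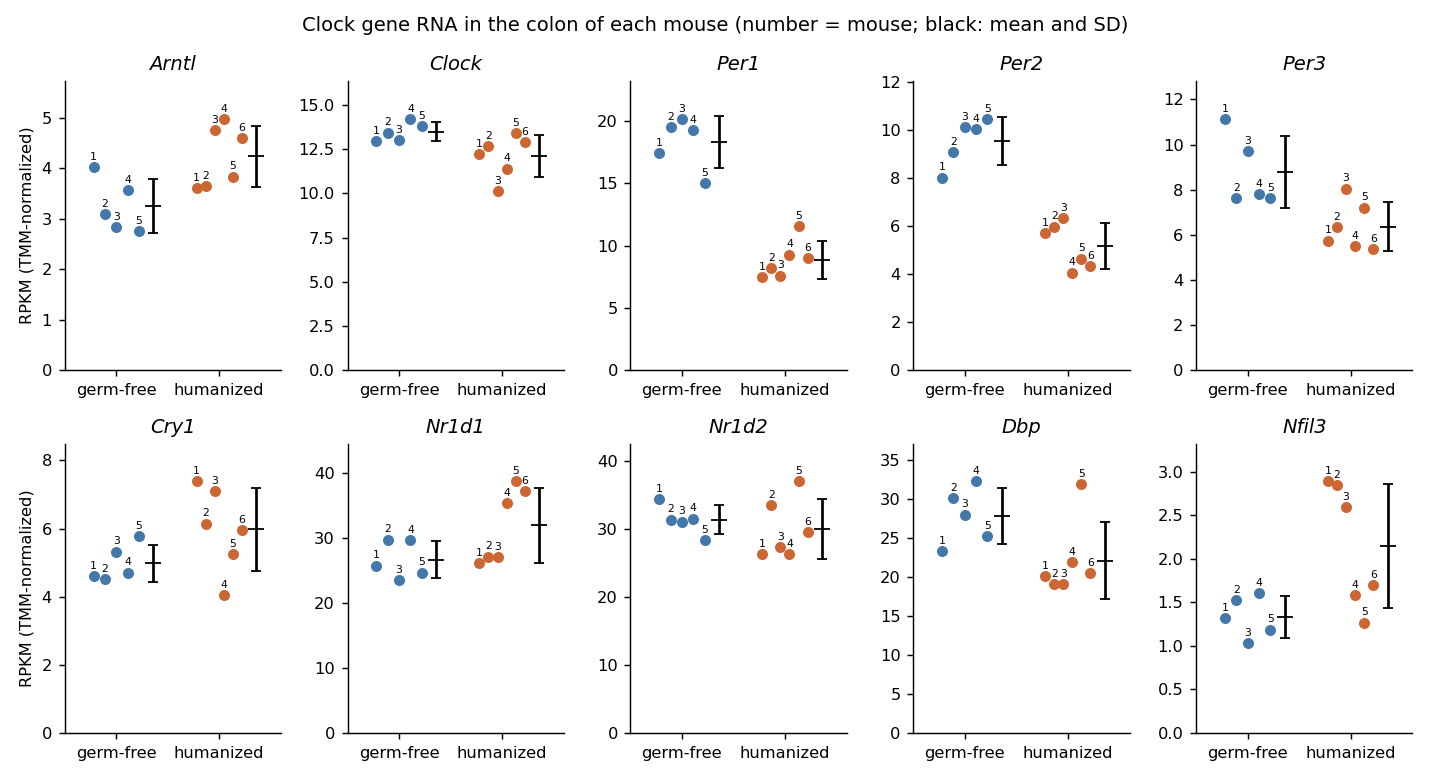
RPKM of each clock gene in each mouse, with germ-free mice in blue and humanized mice in orange, the mouse number above each point and the mean with SD in black. Per1 and Per2 are the members whose groups do not overlap, with all 6 humanized mice below all 5 germ-free mice.

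The PER proteins are the part of the repressor complex that accumulates and decays each day, and Per1 is also induced acutely by glucocorticoids and by cAMP signalling. In germ-free mice 1 to 5, Per1 (ENSMUSG00000020893, chr11:69095217-69109960, mm10) measured 17.4, 19.5, 20.2, 19.3 and 15.02 RPKM. In humanized mice it ranged from 7.49 to 11.5 RPKM with a median of 8.58. Every humanized mouse lay below every germ-free mouse, and humanized mouse 5 was the highest of its group. Group means were 18.3 ± 2.09 (SD, n = 5) and 8.84 ± 1.504 (SD, n = 6), which is a 2.07-fold higher level in germ-free mice. The LFC of Per1 was -1.05 (SE 0.11, FDR = 1.79e-15 by edgeR's exact test). An exact two-sided permutation test over mice gave p = 0.00216, the smallest value that 5 against 6 mice allow.

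Per2, the paralog most tightly tied to the core loop, showed the same separation. Its values (ENSMUSG00000055866, chr1:91415982-91459324) were 8.01, 9.08, 10.1, 10.03 and 10.5 RPKM in germ-free mice 1 to 5. In humanized mice 1 to 6 they were 5.70, 5.98, 6.32, 4.06, 4.64 and 4.32 RPKM. No humanized mouse reached the lowest germ-free mouse, and mice 4, 5 and 6 were lower than mice 1, 2 and 3. The means were 9.54 ± 0.9996 (SD, n = 5) and 5.17 ± 0.947 (SD, n = 6), with an LFC of -0.88 (SE 0.12, FDR = 5.97e-10 by edgeR's exact test) and an exact permutation p of 0.00216. The 2 members whose groups did not overlap, Per1 and Per2, were both lower in humanized mice. Over all tested genes, 18.4% had groups that did not overlap, 9.73% with humanized mice lower and 8.67% with humanized mice higher.

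Per3, a paralog that is not needed for the loop to run, changed less. Germ-free mice 1 to 5 had 11.1, 7.61, 9.72, 7.81 and 7.64 RPKM (ENSMUSG00000028957, chr4:151003652-151044665). Humanized mice ranged from 5.36 to 8.05 RPKM with a median of 6.04. The groups overlapped through humanized mouse 3, which lay above 3 of the 5 germ-free mice. The LFC of Per3 was -0.46 (SE 0.13, FDR = 0.00448 by edgeR's exact test, exact permutation p = 0.0173 over mice), from means of 8.79 ± 1.59 (SD, n = 5) and 6.37 ± 1.07 (SD, n = 6). This call was lost when any of 6 single mice was left out (germ-free 1 or 3, humanized 1, 2, 4 or 6), where the FDR lay between 0.0117 and 0.0282, and with edgeR's quasi-likelihood test (FDR = 0.0193).

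The levels of the Period genes can be set beside the smooth muscle markers of the same mice. Humanized mouse 6 had as much of these markers as germ-free mouse 1 (935 and 932 CPM summed). Its Per1 was 8.998 RPKM against 17.4, its Per2 4.32 against 8.01 and its Per3 5.36 against 11.1. Germ-free mouse 1 had the most Per3 of its group, and germ-free mouse 5, at 1101.5 CPM of these markers, had 7.64 RPKM. Humanized mouse 5, with the least of these markers (104 CPM), had the most Per1 of its group (11.5 RPKM), Per2 at 4.64 RPKM below mice 1 to 3, and Per3 at 7.21 RPKM below mouse 3 alone. With the mean log2 CPM of these markers as a covariate in edgeR's quasi-likelihood fit, the LFC of Per1 was -1.15 (FDR = 0.00921). That of Per2 was -0.92 (FDR = 0.0491) and that of Per3 -0.75 (FDR = 0.0764). In that fit 171 of all genes were called. The quasi-likelihood test without the covariate called 2699 and the exact test 3826. Marker level and group went together, so muscle content and colonization cannot be told apart here. A cause of the Period gene levels was not tested.

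**Figure D2:**
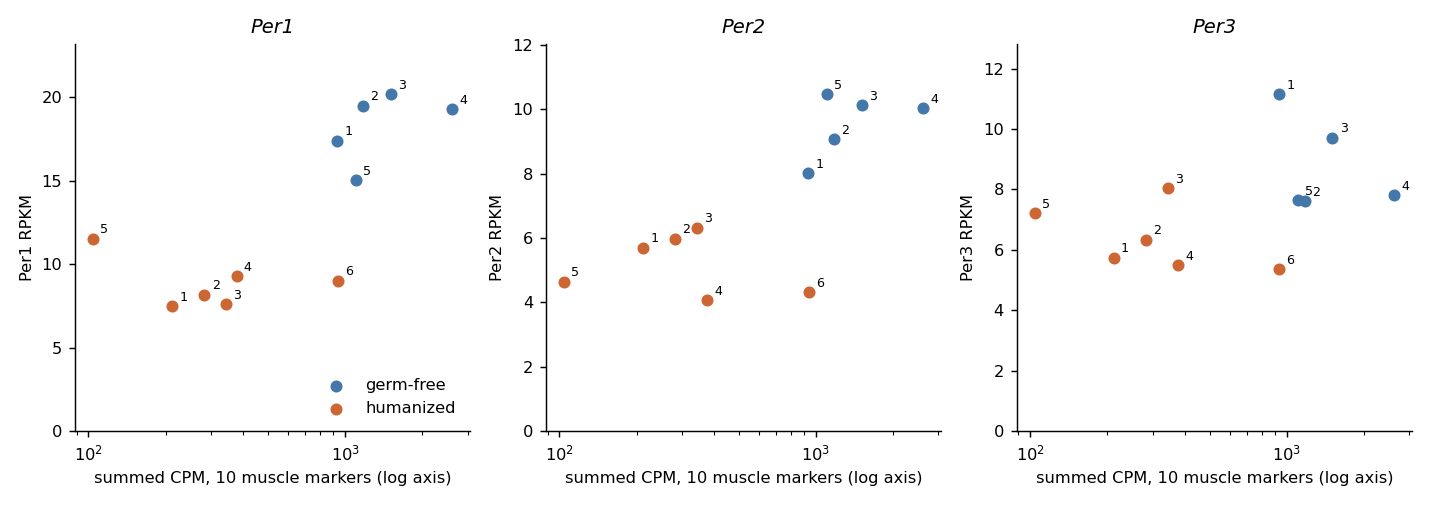
RPKM of Per1, Per2 and Per3 (vertical axes) against the summed CPM of 10 smooth muscle markers (horizontal log axes), 1 point per mouse with its number. Humanized mouse 6 stands at the marker level of germ-free mouse 1 and has less of each Period gene. Germ-free mouse 1 has the most Per3 of its group.

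Cry1, the other kind of repressor among the members, was not called. Germ-free mice 1 to 5 had 4.59, 4.51, 5.32, 4.70 and 5.77 RPKM and humanized mice 7.38, 6.15, 7.09, 4.05, 5.26 and 5.95 RPKM. Humanized mice held both the highest values and the lowest one. The LFC of Cry1 was 0.26 (SE 0.14, FDR = 0.215 by edgeR's exact test). Its paralog Cry2 fell, from 8.69 ± 0.397 (SD, n = 5) to 6.28 ± 0.495 RPKM (SD, n = 6), without overlap of the groups (LFC -0.47, SE 0.06, FDR = 3.41e-08 by edgeR's exact test).

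Neither activator, Arntl or Clock, was called at FDR below 0.01. Arntl (ENSMUSG00000055116, chr7:113207465-113314122) measured 4.02, 3.09, 2.84, 3.57 and 2.76 RPKM in germ-free mice 1 to 5. In humanized mice 1 to 6 it measured 3.61, 3.64, 4.75, 4.98, 3.83 and 4.60 RPKM. Germ-free mouse 1 lay above humanized mice 1, 2 and 5, so the groups overlapped. The LFC of Arntl was 0.38 (SE 0.13) with FDR = 0.0488 by edgeR's exact test, which passes 0.05 and not 0.01, and the exact permutation p was 0.0303. It was 0.20 (FDR = 0.417) with scaling to total counts and 0.12 (FDR = 0.719) with scaling to epithelial markers.

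Clock, the partner of BMAL1, was the steadiest member among germ-free mice, at 13.0–14.2 RPKM with a coefficient of variation of 3.97%. Humanized mice had 10.1–13.4 RPKM with a median of 12.4. The LFC of Clock was -0.15 (SE 0.07, FDR = 0.158 by edgeR's exact test), and Clock was called lower with scaling to total counts (LFC -0.35, FDR = 1.37e-05) and to epithelial markers (LFC -0.41, FDR = 2.99e-04). Npas2, which can replace CLOCK as the partner of BMAL1, rose from 2.54 ± 0.558 (SD, n = 5) to 3.74 ± 0.667 RPKM (SD, n = 6), with overlapping groups (LFC 0.56, SE 0.16, FDR = 0.00727 by edgeR's exact test). Its call was lost without any of 7 single mice and with edgeR's quasi-likelihood test (FDR = 0.0193). Its LFC was 0.37 (FDR = 0.106) with scaling to total counts, 0.29 (FDR = 0.270) with scaling to epithelial markers and 0.26 (FDR = 0.626) with the smooth muscle covariate.

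Nr1d1 and Nr1d2 were among the most abundant members and neither was called. Nr1d1 (ENSMUSG00000020889, chr11:98767932-98775333) measured 25.7, 29.7, 23.4, 29.7 and 24.7 RPKM in germ-free mice 1 to 5 and 26.1, 27.1, 27.0, 35.3, 38.7 and 37.2 RPKM in humanized mice 1 to 6. Humanized mice 1 to 3 lay within the germ-free range and mice 4 to 6 above it. The LFC of Nr1d1 was 0.26 (SE 0.12, FDR = 0.117 by edgeR's exact test) and -0.01 (FDR = 0.971) with scaling to epithelial markers. Nr1d2 had means of 31.4 ± 2.12 (SD, n = 5) and 30.1 ± 4.40 RPKM (SD, n = 6), with an LFC of -0.06 (SE 0.09, FDR = 0.710 by edgeR's exact test). In a GENCODE M21 annotation, 263 exon bases of Nr1d1 (8.55%) are shared with Thra on the opposite strand. The library kit does not mark strand, so reads of these bases cannot be told apart between the genes. Thra itself had an LFC of -0.15 (FDR = 0.344 by edgeR's exact test).

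Dbp, a direct target of CLOCK and BMAL1 and an activator of output genes, was lower in 5 of 6 humanized mice than in any germ-free mouse. Germ-free mice 1 to 5 had 23.3, 30.2, 28.0, 32.3 and 25.3 RPKM (ENSMUSG00000059824, chr7:45705088-45710155). Humanized mice 1 to 6 had 20.1, 19.1, 19.1, 21.9, 31.99 and 20.5 RPKM. The groups overlapped through humanized mouse 5 alone, which reached the upper end of the germ-free range. The LFC of Dbp was -0.33 (SE 0.13, FDR = 0.0655 by edgeR's exact test). It was -0.47 (FDR = 1.03e-05) without humanized mouse 5. With scaling to total counts it was -0.52 (FDR = 3.00e-04), and with scaling to epithelial markers -0.59 (FDR = 1.84e-04). In the same annotation 18.0% of the exon bases of Dbp are shared with Sphk2 on the opposite strand, whose reads there cannot be told apart either. Sphk2 had an LFC of -0.04 (FDR = 0.766 by edgeR's exact test).

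Nfil3 was the scarcest member and the most variable among humanized mice, with a coefficient of variation of 33.2%. Germ-free mice 1 to 5 had 1.31, 1.53, 1.03, 1.605 and 1.19 RPKM (ENSMUSG00000056749, chr13:52967209-52981073). Humanized mice 1 to 6 had 2.89, 2.84, 2.59, 1.59, 1.27 and 1.69 RPKM. Mice 1, 2 and 3 lay above the whole germ-free range, mouse 6 just above it, and mice 4 and 5 within it. The LFC of Nfil3 was 0.69 (SE 0.23) with FDR = 0.0334 by edgeR's exact test, and the exact permutation p was 0.0390. It was 0.80 (FDR = 0.00299) without humanized mouse 5, and the highest FDR with a single mouse left out was 0.112. With scaling to total counts it was 0.50 (FDR = 0.146) and with scaling to epithelial markers 0.46 (FDR = 0.277). At FDR below 0.05, Arntl and Nfil3 were higher beside the 3 Period genes that were lower, 5 of 10 members against 28.6% of all genes tested, but neither Arntl nor Nfil3 passed 0.05 under those scalings.

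**Figure D3:**
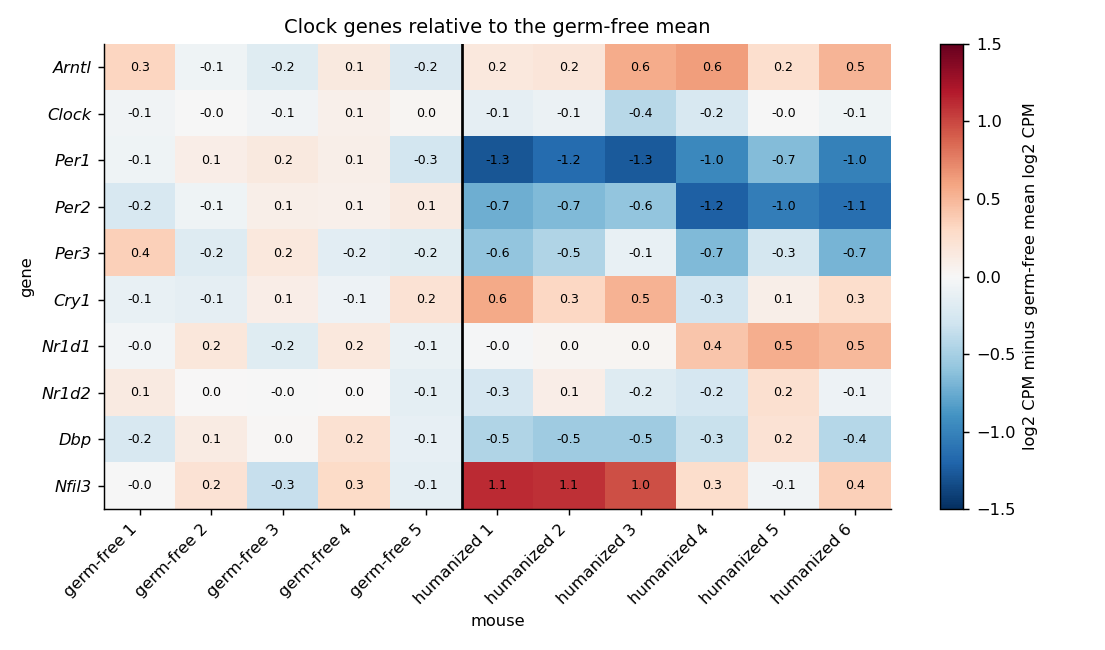
Log2 CPM of each clock gene (rows) in each mouse (columns) minus the mean of the germ-free mice, red for higher and blue for lower. Per1 and Per2 are lower in all 6 humanized mice, while Nfil3 is highest in humanized mice 1 to 3 and Nr1d1 in humanized mice 4 to 6.

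Humanized mice were more variable than germ-free mice for 8 of the 10 members. The median coefficient of variation of the members was 11.2% in germ-free and 17.5% in humanized mice. Over all tested genes it was 10.4% and 16.5%, and it was higher in humanized mice for 80.2% of genes, so the members were not set apart in this. Much of the spread within the humanized group followed the same mice in several members. Mice 1, 2 and 3 had the 3 highest values of Per2, Cry1 and Nfil3, and mice 4, 5 and 6 had the 3 highest values of Per1, Nr1d1 and Dbp. Arntl, Clock, Per3 and Nr1d2 did not separate these mice. Over all tested genes, 13.5% separated mice 1 to 3 from mice 4 to 6. The division was noticed in the members' own values and was given no test, and the labels give nothing that sets these mice apart. Correlations of all 45 pairs of members over the 6 humanized mice were added after the values were seen. By exact permutation tests of Pearson's r, 7 pairs had an unadjusted p under 0.05 and 0 an adjusted one, with a lowest adjusted p of 0.125.

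Nr1d1 and Nfil3, a target of its product, are described as an example that was picked after the values were seen. On the log2 CPM scale, Nr1d1 exceeded Nfil3 by 4.80–5.09 in germ-free mice. This difference was 3.77, 3.85 and 3.97 in humanized mice 1, 2 and 3 and 5.06, 5.51 and 5.04 in mice 4, 5 and 6. The humanized mice therefore stood on both sides, and partly within, the germ-free range, whereas among germ-free mice the 2 with the most Nr1d1 also had the most Nfil3. The difference between Nr1d1 and Per2 was 0.28–0.78 in germ-free mice, 1.17–1.27 in humanized mice 1 to 3 and 2.13–2.19 in mice 4 to 6, without overlap of the groups. Because the humanized mice fell into separate clusters for these genes, no r over the group is given for them. Summed smooth muscle markers were 212, 283 and 345 CPM in humanized mice 1 to 3 and 378, 104 and 935 CPM in mice 4 to 6, and their part in this pattern was not tested.

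**Figure D4:**
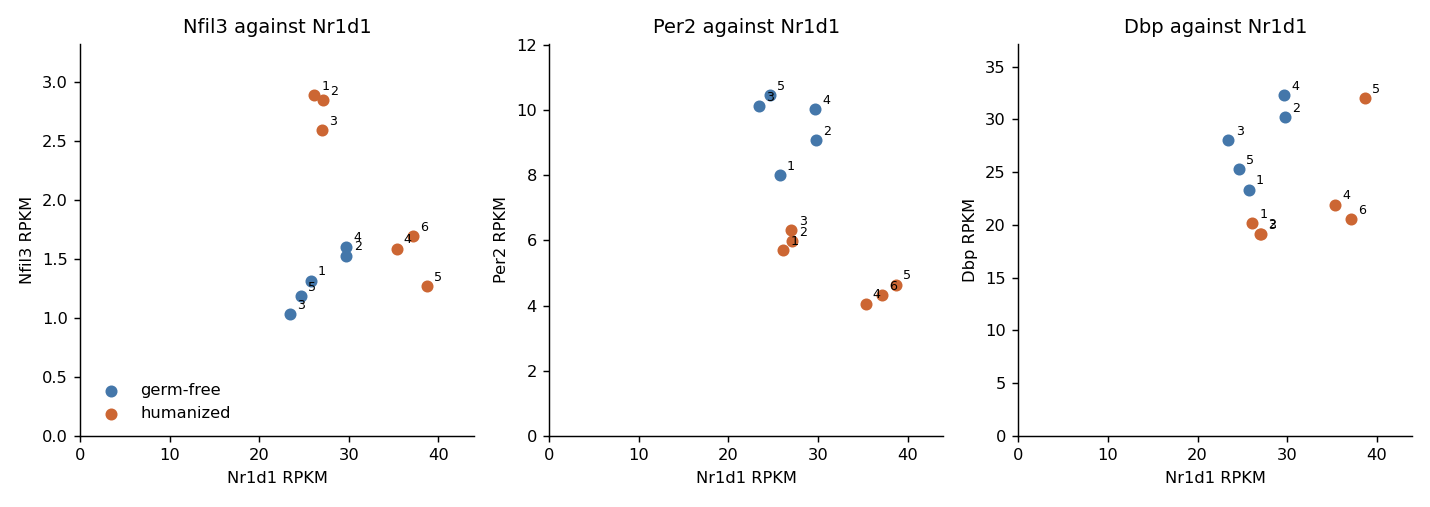
RPKM of Nfil3, Per2 and Dbp (vertical axes) against RPKM of Nr1d1 (horizontal axes), 1 point per mouse with its number. Humanized mice 1 to 3 and 4 to 6 lie apart in all panels, and Dbp is high in humanized mouse 5.

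Activators and their targets were compared by an index. It was the mean log2 CPM of Arntl and Clock minus that of Per1, Per2, Per3, Nr1d1, Nr1d2 and Dbp. The RNA of these targets peaks in the opposite phase. Each mouse was sampled at a single hour that is not given, so the index compares levels and cannot measure phase. The index was -1.53 ± 0.11 (SD, n = 5) in germ-free mice, from -1.69 to -1.38. In humanized mice it was -0.99 ± 0.16 (SD, n = 6), from -1.25 to -0.83. The groups did not overlap and differed by 0.54, but the index is a score over the members and was given no test. Its difference depended on which genes entered. It was 0.81 with Arntl as the only activator and 0.16 with Nr1d1 and Dbp as the only opposite genes, where the germ-free range of -1.58 to -1.13 lay within the humanized range of -1.66 to -1.08.

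An opposite movement of Arntl and its targets between mice of 1 group was not detected. Pearson and Spearman correlations of log2 CPM with Arntl over the 6 humanized mice were computed for the 9 other members, and r is given for the 3 whose values did not separate mice 1 to 3 from mice 4 to 6. None passed an exact permutation test, with 0 of 9 at an unadjusted p under 0.05, a lowest p of 0.219 and a lowest Benjamini–Hochberg adjusted p of 0.758. For Clock, r was -0.60 (rho -0.43, exact permutation p = 0.219 and 0.419) and -0.64 without the 2 mice farthest from the median of Arntl. For Per3 it was -0.06 (rho -0.09, exact permutation p = 0.890 and 0.919) and 0.05 without those mice. For Nr1d2 it was -0.49 (rho -0.09, exact permutation p = 0.335 and 0.919) and -0.88 without those mice. The sign depended on scaling, with 7 of 9 values of r negative under TMM and 9 of 9 positive under scaling to epithelial markers. Under the latter, r was 0.12 for Clock, 0.57 for Per3 and 0.17 for Nr1d2 (exact permutation p = 0.857, 0.249 and 0.679). A scaling shifts all genes of a mouse alike, so this change of sign is not particular to the clock genes. Arntl itself was uneven, at 3.61–3.83 RPKM in mice 1, 2 and 5 and 4.60–4.98 RPKM in mice 3, 4 and 6.

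Genes whose pattern over the 11 mice was most like that of a member were sought among 12344 genes with a mean of at least 5 CPM. Closest to Arntl were Rfx3, a ciliogenesis factor (r = 0.88), Ighv6-3, Igkv6-20, Foxp3, the marker of regulatory T cells (r = 0.85), and Cnot10. Farthest from it were S100a6 (r = -0.91), Gpatch11, Naa60, C230052I12Rik and Tlr4, a receptor for bacterial lipopolysaccharide (r = -0.84). The immunoglobulin genes Ighv6-3 and Igkv6-20 belong to families of near-identical copies, so their counts are uncertain. Closest to Dbp were Smim24 (r = 0.93), Tusc3, Klf9, a clock-controlled and glucocorticoid-induced factor (r = 0.91), Nkx6-2 and Fam168b. Among the members, Per2 (r = -0.79, rank 12312), Clock (r = -0.66, rank 12091) and Per1 (r = -0.64, rank 12033) stood near the far end from Arntl, and Nr1d1 nearer to it (r = 0.58, rank 636). In deviations from the group means, r with Arntl was -0.53 for Per2, -0.42 for Clock, 0.06 for Per1 and 0.35 for Nr1d1. Per1 ranked at 185 of these genes for Dbp, with r = 0.80, and r = 0.84 in deviations from the group means. These values describe 11 mice that share a group difference, and no test was made.

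Of 16 further clock genes tested, 2 were higher and 2 lower at FDR below 0.01, with a median LFC of -0.11. This is 25.0% called, near the 19.3% of all genes. Both higher calls were lost with scaling to total counts and to epithelial markers, where 0 were higher and 4 lower. Beside Npas2 and Cry2 these were Fbxw11, a ubiquitin ligase subunit that targets PER proteins (LFC 0.28, SE 0.07, FDR = 0.00383), and Rora, the activator at ROR elements (LFC -1.15, SE 0.23, FDR = 3.23e-05, all by edgeR's exact test). Rora was at 0.988–1.41 RPKM in germ-free and 0.279–0.748 RPKM in humanized mice, without overlap, and its LFC was -0.55 (FDR = 0.477) with smooth muscle markers as a covariate. Fbxw11 lost its call without any of 7 single mice, and its LFC was 0.08 (FDR = 0.380) with scaling to total counts and 0.015 (FDR = 0.934) with scaling to epithelial markers. The E-box repressor Bhlhe40 had an LFC of -0.02 (FDR = 0.922 by edgeR's exact test). Rorb did not pass the filter on low counts.

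Of 12 genes driven by the clock, 4 were lower and 1 higher, with a median LFC of -0.30. This is 41.7% called, against 19.3% of all genes. With scaling to total counts or to epithelial markers, 6 were lower and 0 higher. Both D-box activators related to DBP were lower. Tef fell from 25.6 ± 0.927 (SD, n = 5) to 19.1 ± 2.68 RPKM (SD, n = 6), and Hlf from 2.08 ± 0.366 (SD, n = 5) to 0.517 ± 0.203 RPKM (SD, n = 6). Their LFC values were -0.42 (FDR = 1.83e-04) and -2.01 (FDR = 2.05e-11). With the smooth muscle covariate they were -0.61 (FDR = 0.0294) and -1.27 (FDR = 0.102). Tsc22d3, a glucocorticoid-induced repressor of inflammatory transcription, and Marveld1 were lower as well, by LFC values of -1.01 and -0.68. With the smooth muscle covariate these were -0.60 (FDR = 0.179) and -0.02 (FDR = 0.980), and Marveld1 also lost its call with edgeR's quasi-likelihood test (FDR = 0.0164) and without germ-free mouse 3 or 4. Cdkn1a, the cell cycle inhibitor p21, rose from 56.4 ± 3.12 to 76.9 ± 15.6 RPKM (LFC 0.45, FDR = 0.00280). The call of Cdkn1a was lost with scaling to total counts (LFC 0.25, FDR = 0.0654) and to epithelial markers (LFC 0.18, FDR = 0.211), with edgeR's quasi-likelihood test (FDR = 0.0150) and without any of 4 single mice (germ-free 1, 2 or 3, humanized 6). Wee1 had an LFC of -0.22 (FDR = 0.101) and Usp2 of -0.34 (FDR = 0.234, all by edgeR's exact test). Wee1 was called lower with scaling to total counts (LFC -0.41, FDR = 6.49e-04) and to epithelial markers (LFC -0.47, FDR = 0.00613), and Usp2 without humanized mouse 6 (LFC -0.54, FDR = 0.00818). With the smooth muscle covariate, edgeR's quasi-likelihood test called 0 of the 12, of which 4 had an unadjusted p under 0.05.

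Genes that respond to glucocorticoids, and immediate early genes, were described by lists of their own. The signals that induce Per1 were not measured, and a link of these genes to Per1 was not tested. Of 6 glucocorticoid-responsive genes, 4 were lower and none higher (median LFC -0.79), against 10.1% of all genes called lower. With upper-quartile scaling and with scaling to total counts or epithelial markers, 6 of 6 were lower. Tsc22d3 is also among the output genes, and Klf9 is in both lists too. They were Sgk1, a kinase that regulates sodium transport (66.3 ± 11.6 to 28.8 ± 3.01 RPKM, LFC -1.20, FDR = 5.47e-20), Tsc22d3, Zbtb16 (LFC -1.68) and the glucocorticoid receptor co-chaperone Fkbp5 (LFC -0.40, FDR = 0.00110). Of 8 immediate early genes, 3 were lower and 1 higher (median LFC -0.74), which is 4 of 8 called against 19.3% of all genes. Fosb fell from 4.14 ± 0.770 to 0.589 ± 0.256 RPKM (LFC -2.81, FDR = 5.72e-23), Egr1 from 11.8 ± 2.90 to 3.30 ± 1.36 RPKM and Fos from 42.0 ± 10.6 to 19.6 ± 10.4 RPKM (SD, n = 5 and 6). Btg2, an antiproliferative factor, rose from 40.1 ± 0.598 to 52.2 ± 7.92 RPKM (LFC 0.38), a call lost with scaling to total counts (LFC 0.19, FDR = 0.128) and to epithelial markers (LFC 0.13, FDR = 0.504). With either of these scalings 6 immediate early genes were lower and 0 higher. Zbtb16 and Fos were not called by edgeR's quasi-likelihood test (FDR = 0.0134 and 0.0162), and Fos also not without germ-free mouse 5. With the smooth muscle covariate, the LFC of Zbtb16 was -0.23 and that of Fos -0.63, while Sgk1 (LFC -1.06, FDR = 0.0161), Fkbp5 (LFC -0.45, FDR = 0.191) and Egr1 (LFC -1.65, FDR = 0.0621) lost their calls at folds close to those without it, and Fosb kept its call (LFC -3.21). Btg2 had an LFC of 0.17 in that fit. With the smooth muscle covariate, edgeR's quasi-likelihood test called 1 of the immediate early genes and 0 of the glucocorticoid-responsive genes, of which 5 of 6 had an unadjusted p under 0.05.

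Nfil3 in intestinal epithelium is controlled by a relay from group 3 innate lymphoid cells (ILC3) through interleukin-22 and STAT3. A list of relay genes and other STAT3 targets held 6 tested genes. Socs3, Reg3b and Reg3g, all targets of STAT3, were higher and none was lower, with a median LFC of 0.42 over the 6. Il23r, Il22ra1 and Stat3 were not called, and the lowest LFC of the 6 was -0.91. Whether the relay to Nfil3 changed was not tested. Over all genes, 9.2% were called higher. Socs3 rose from 3.57 ± 0.276 to 5.48 ± 1.25 RPKM (LFC 0.62, FDR = 0.00104) and the antimicrobial lectin Reg3b from 281 ± 239 to 2684 ± 1041 RPKM (LFC 3.26, FDR = 6.44e-09). Reg3g rose from 78.8 ± 82.9 to 342 ± 91.3 RPKM (LFC 2.12, FDR = 5.86e-04). Without germ-free mouse 2 the LFC of Reg3b was 3.89 and that of Reg3g 2.99. With all mice, edgeR's quasi-likelihood test did not call Reg3g (FDR = 0.0120). Socs3 lost its call with scaling to total counts (LFC 0.44, FDR = 0.0442) and to epithelial markers (LFC 0.36, FDR = 0.168). Il22 and Il23a did not pass the filter on low counts. With the smooth muscle covariate, edgeR's quasi-likelihood test called 0 of the 6, of which 4 had an unadjusted p under 0.05, and the LFC of Socs3 was 0.96, of Reg3b 3.08 and of Reg3g 2.13.

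**Figure D5:**
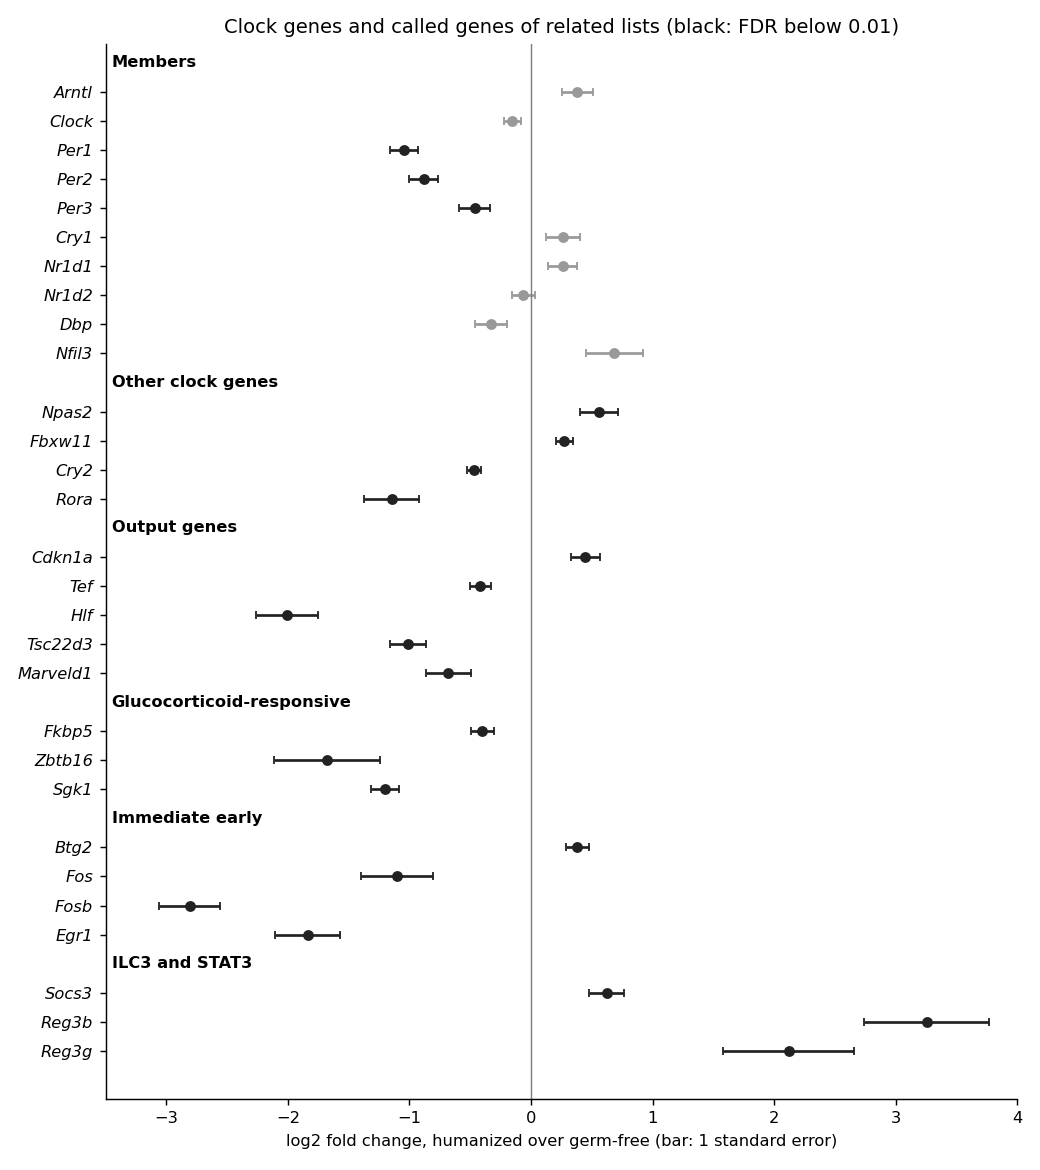
LFC of humanized over germ-free mice with 1 SE for the 10 clock genes and for the genes of related lists called at FDR below 0.01, where black marks a call and grey none. The 3 Period genes are lower, Cry2, Tef and Hlf are lower as well, and Arntl, Npas2 and Nfil3 lie above 0.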

How the data were processed

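Messenger RNA of the colon was sequenced as 101 bp paired-end reads with a TruSeq RNA v2 kit, which does not mark strand. The authors aligned reads to mm10 with TopHat2 2.1.0 and Bowtie2 2.2.3 in MAP-RSeq 2.1.1, counted them per gene with featureCounts (Subread 1.4.6-p5), and deposited raw counts of 43346 genes for 11 mice in 1 table with gene lengths. Every column of counts was assigned to a mouse by its label, and all mice were used.

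The classic edgeR pipeline of the study's methods was run with edgeR 4.0.16 (R 4.3.3). Low counts were removed by filterByExpr at its defaults (a CPM worth 10 reads in at least 5 mice, and 15 reads in total), libraries were normalized with TMM, and edgeR's exact test compared the groups. Benjamini–Hochberg adjustment ran over all tested genes, and calls were made at FDR below 0.01. SEs came from the quasi-likelihood fit. RPKM values used the deposited lengths, and log2 CPM a prior count of 2. Libraries held 39125290 to 64148538 counted reads, and mice of 1 group differed by far more than counting error (mean chi-square per gene of 21.6 to 133 over 25 pairs).

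The members and gene lists were chosen with earlier results of these data known. Named genes were the 10 members, list genes at FDR below 0.01, and the genes nearest to Arntl and Dbp in pattern, 5 at each end for Arntl and 5 for Dbp. Ciart, Bhlhe40, Wee1, Usp2, Thra and Sphk2 were named after their values were seen. Results of some single genes are left out here. Alternatives were the quasi-likelihood test, DESeq2 1.42.0, other scalings and filters, FDR below 0.05, each mouse left out, a replicate block and a smooth muscle covariate. Promoter windows are RefSeq's, and shared exons come from GENCODE M21, which need not be the annotation the authors used.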

Additional observations from a re-analysis of the deposited data

Results flagged for a closer look

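Within a group, a mouse was singled out where its gap to the next mouse was large for the range of the group (Dixon's ratio above 0.710 for 5 mice and 0.625 for 6). Of 72 groups of values examined, 7 (9.72%) met this, where chance gives about 1 in 20.

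Among the members this was Dbp alone, at 31.99 RPKM in humanized mouse 5 against 21.9 in the next mouse. The same mouse had the lowest Marveld1 of its group, 2.57 RPKM with the next at 4.88, and the highest Fosb, 1.08 RPKM with the next at 0.612. It also had the lowest summed smooth muscle markers, at 104 CPM. Humanized mouse 6, with the highest such sum of its group at 935 CPM, had the highest Zbtb16 (0.610 RPKM, next 0.252), Fos (39.3 RPKM, next 20.05) and Usp2 (3.28 RPKM, next 2.02). Among germ-free mice, mouse 2 had the highest Reg3g, 222 RPKM with the next at 65.5.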

How the results depend on the processing

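The lower levels of Per1 and Per2 kept their direction in every alternative tried, and Per1 also its call, at a highest FDR of 0.00921. Over the 10 members and every alternative but FDR below 0.05, 193 of 210 values kept their direction and side of the threshold. Of the rest, 10 lost and 6 gained a call, and 1 reversed, Nr1d1 with scaling to epithelial markers (LFC -0.0083, FDR = 0.971). The count of members called, 3, became 5 with scaling to total counts and 5 with scaling to epithelial markers (Per1, Per2, Per3, Clock and Dbp). The count was 5 at FDR below 0.05, 2 with the quasi-likelihood test, and 1 with that test and the smooth muscle covariate. With single mice left out it was 2 to 5, and 5 without humanized mouse 5, where Dbp and Nfil3 were added. The 4 other clock genes became 2 without a filter, 3 with the quasi-likelihood test and 1 with that test and the covariate. They were 2 to 5 with single mice left out, 2 without any one of germ-free 3, 4 or 5 or humanized 1 or 4. The 5 output genes became 3 with the quasi-likelihood test, 0 with the covariate, and 3 to 6 with single mice left out (3 without germ-free 3). The covariate fit, which used the quasi-likelihood test, called 0 glucocorticoid-responsive, 1 immediate early and 0 ILC3 and STAT3 genes. Of all genes it called 171 (138 higher, 33 lower). In the same order, the exact test called 4, 4, 3 and 3826. The quasi-likelihood test without the covariate called 3, 3, 2 and 2699. Usp2 reversed with the covariate (LFC 0.20), and Bhlhe40 (LFC -0.02) ranged from -0.0714 to 0.0429 with single mice left out. The index differed by 0.69 with Npas2 added, 0.81 with Arntl alone, 0.33 with Cry1 and Nfil3 added and 0.16 with Nr1d1 and Dbp alone. The cause of these changes was not tested. For 25 further genes (those called in the lists, and Ciart, Wee1, Usp2, Bhlhe40, Thra and Sphk2), 450 of 525 values kept direction and side of the threshold, 68 lost and 4 gained a call, and 3 reversed.

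Mice with the same number did not deviate together (r of deviations -0.13 to 0.09 over 5 pairs), so the numbers do not pair them. With the replicate block, 1012 of all genes were called (506 in each direction), 2 members (Per1 and Per2, with Per3 at FDR = 0.0497), 1 other clock gene, 2 output genes, 2 glucocorticoid-responsive genes and 1 ILC3 and STAT3 gene.

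With 5 against 6 mice, no exact permutation p can lie below 0.00216.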
